A study of Saccharomyces cerevisiae with 5 samples.

Results

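The effect of losing SIW14 on each gene was compared between budding yeast in 0.4 M KCl and unstressed yeast. For every gene the log2 ratio of the siw14 deletion strain to wild type without stress was subtracted from the same ratio with both strains in KCl, and the difference is called the gain. A gain below 0 means that the mutant's transcript, relative to the wild type's, was lower in KCl than without stress. A gain exists for the 5548 of 6253 genes or unnamed probes that had a value on both arrays, of which 3881 are named genes of 4072 and 1667 are probes with no gene symbol. Of the 191 named genes left out, 90 had a value only in KCl, where the mutant was at least 2-fold higher for 19 and lower for 13. A further 48 had a value only without stress, where it was at least 2-fold higher for 15 and lower for 0. The gain cannot be formed for these, which include the stress genes CTT1, GPH1 and TPS1.

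Siw14 is a phosphatase that removes a phosphate from an inositol pyrophosphate, one of a family of highly phosphorylated inositol signalling molecules. Yeast under stress runs the environmental stress response, in which the activators Msn2 and Msn4 turn on genes for protection and energy storage while genes that make ribosomes are turned down. High external KCl is an osmotic stress that activates the kinase Hog1, and cells answer it by making glycerol and by a pause in growth and division.

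All cultures were in log phase, in synthetic complete medium. On both arrays behind the gain, the strain labelled as the siw14 deletion was labelled with Cy5 and the wild type BY4741 with Cy3. On one array neither strain was stressed, and on the other both had been in 0.4 M KCl for 20 min. Of the other 3 arrays, the mutant against BY4741 with both in 0.4 mM hydrogen peroxide for 20 min and a wild type named ACY044 in the same KCl against its own unstressed cells are used for comparison. Polyadenylated RNA was hybridised, 1 array for each comparison, with no replicate and no dye swap. No test across replicates was therefore possible and no p-value is given. A dye effect that is the same on both arrays drops out of the gain, whereas 1 that differs between them cannot be told apart from it. Genes are counted at a gain of at least 1 in size, which is 2-fold and a rule of size only.

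The spread of ratios differed between both arrays, and several results below depend on how that is treated. The median absolute deviation over genes and unnamed probes with a gain was 0.25 without stress and 0.49 in KCl. The median over all probes with a value was -0.00 on each array. The KCl array's wild-type channel is described in 1 label as unstressed medium and in its treatment entry as KCl, and the treatment entry was followed. GPD1, the glycerol synthesis gene that lay at 6.02 in ACY044 in KCl over unstressed, lay at 0.37 between mutant and wild type on the KCl array, and STL1, the glycerol transporter gene that lay at 6.68, lay at 0.11. SIW14 itself lay at -2.07 without stress and -2.06 in KCl, a gain of 0.01, although a scaling of each array to its own spread moves that gain to 1.47. Among marker genes of laboratory strains, URA3 lay at 3.02 and 2.53 and LEU2 at 1.84 and 2.10. Since BY4741 carries deletions of both, the mutant culture differed from the wild type in more than SIW14, and the part of this in the gain was not tested.

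Over all genes the gain lay around 0 with a longer tail on the low side. The median was -0.01, the quartiles -0.37 and 0.32, and the range -4.93 to 3.55. Of 5548, 3634 (65.5%) lay within 0.5 of 0. Past 2-fold there were 225 on the high side (4.06%) and 434 on the low side (7.82%), and past 4-fold 30 and 113. The KCl array alone had 606 past 2-fold on the high side (10.9%) and 588 on the low side (10.6%), the unstressed array 325 (5.86%) and 88 (1.59%). Among named genes alone, 109 (2.81%) were higher and 332 (8.55%) lower. The gene lists below hold named genes only, so their counts are to be set beside these named-gene shares. Higher calls made up 34.1% of all calls, but 52.8% after quantile normalisation of the pair of arrays. Of the 332 lower named genes, 103 (31.0%) were ribosome assembly factors and 40 (12.0%) cytosolic ribosomal proteins.

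**Figure D1:**
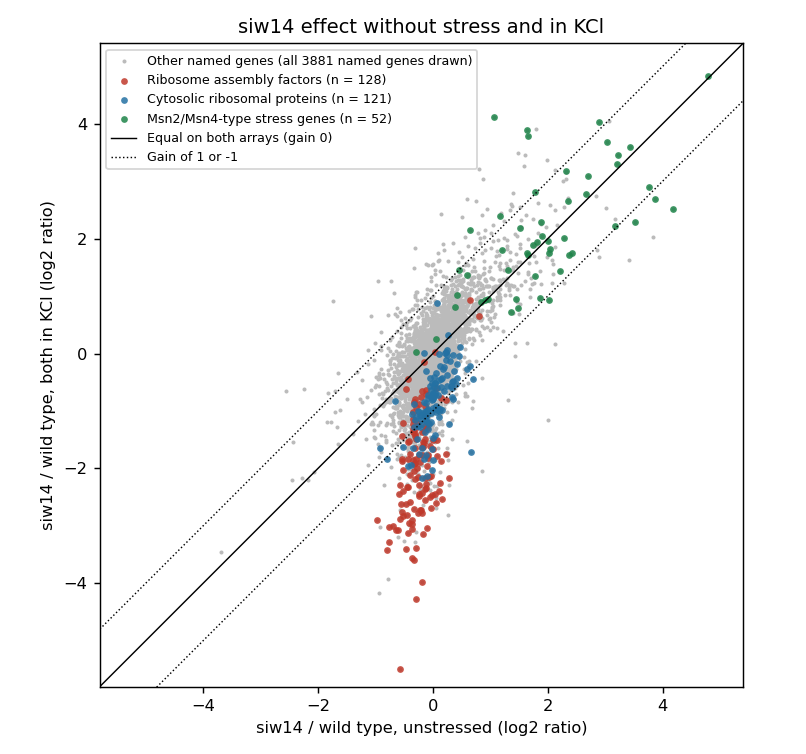
Log2 ratio of siw14 to wild type in KCl (vertical axis) against the same ratio without stress (horizontal axis), 1 point per named gene with a value on both arrays, with lines at a gain of 0 and of 1 in either direction. Assembly factors (red) sit below the line of equal ratios at a median gain of -1.73, while stress genes (green) lie along it at a median of 0.12.

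The low side was led by genes that assemble ribosomes. The lowest gain of all named genes was that of DHR2, an RNA helicase of the small subunit processome, which lay at -0.57 without stress and -5.50 in KCl, a gain of -4.93 or 30.5-fold lower. SSF1, a large subunit assembly factor, lay at -0.29 and -4.28, a gain of -3.99. NOC2, which takes part in nuclear export of pre-ribosomes, lay at -0.19 and -3.97, a gain of -3.79. LTV1, an export and maturation factor of the small subunit, lay at -0.34 and -3.59, a gain of -3.25, and the nucleolar protein gene NSR1 at -0.36 and -3.56, a gain of -3.21. SSF1, NOC2, LTV1 and NSR1 thus lay within 0.5 of 0 without stress and DHR2 just outside, while all 5 lay far below the wild type in KCl. Of the 40 named genes with the lowest gains, 26 belong to the assembly lists and 30 were within 0.5 of 0 without stress. Most genes lay within 0.5 of 0 on that array, where the median absolute deviation was 0.25, so the 30 sets these genes apart little. The assembly lists hold 128 of all 3881 named genes with a gain. In wild type ACY044 in KCl, 35 of the 39 lowest-gain genes with a value were themselves at least 2-fold lower. Over all genes and unnamed probes 11.7% were, and the share among named genes alone was not computed.

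Small subunit assembly genes were lower as a whole list. All 60 on the array had a gain, and 51 of them lay at least 2-fold lower and 0 higher. The median gain was -1.88, with quartiles of -2.36 and -1.38. The list median was -0.30 without stress and -2.26 in KCl, against -0.00 and -0.01 over all genes. Within the processome, the complexes that join the nascent transcript early were low in every member. The 7 genes of the UTP-A complex, which binds the start of the pre-rRNA, had gains of -3.09 to -1.57, and NAN1, at the low end, lay at -0.30 and -3.39. The 6 genes of the UTP-B complex had gains of -2.63 to -1.86, with PWP2 at -0.80 and -3.43. The 5 proteins of box C/D particles, which guide methylation of rRNA, had gains of -2.52 to -1.67. NOP58 of these lay at -0.37 and -2.89, and NOP1, the methylase, at -0.98 and -2.89. Proteins of the box H/ACA particles, which guide pseudouridine formation, were at least 2-fold lower for 3 of 4, with CBF5, the pseudouridine synthase, at -0.56 and -2.62. Late maturation genes of the small subunit were lower for 6 of 7. The exception there was the kinase gene RIO1, at -0.15 and -0.14, and among the other members BUD21 had a gain of 0.00.

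Large subunit assembly genes were lower in like manner. There were 52 of 68 past 2-fold on the low side and 0 on the high side, and the median gain was -1.56, with list medians of -0.22 without stress and -1.78 in KCl. ERB1 and YTM1, whose products work in the same complex on pre-rRNA, had gains of -2.94 and -2.52. The GTPase genes NOG1 and NOG2 lay at 0.06 and -0.03 without stress and at -2.60 and -2.69 in KCl. NMD3, the export adaptor of the large subunit, lay at -0.77 and -3.29, a gain of -2.52. Genes for export and cytoplasmic maturation lay past 2-fold for 6 of 7, and their median was -1.60. CGR1, a pre-rRNA processing gene, stood apart from the list at 0.65 and 0.93, a gain of 0.28, while it lay at -2.24 in wild type ACY044 in KCl. SPB1, a methyltransferase gene, lay at 0.80 and 0.65. Both lists together held 103 of 128 genes at least 2-fold lower and 125 below 0. With each array scaled to its own spread, 72 of the 128 lay at -1 or below, and with quantile normalisation 63. A difference of 1 on rescaled values is not a measured 2-fold.

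The polymerase that makes the large rRNAs was low beside the assembly genes. Of the 41 genes of RNA polymerases I and III and their initiation factors, 14 lay at least 2-fold lower, and the median was -0.73. The subunits that belong to polymerase I alone were lower for 6 of 7, at a median of -2.33. RPA43 lay at -0.30 and -3.28, a gain of -2.97, and RPA135, the second-largest subunit, at -0.41 and -2.99. RPA14 was the member that was not, at -1.02 and -1.09, being lower on both arrays. Subunits of polymerase III alone lay past 2-fold for 3 of 10 (median -0.83), and subunits that both share for 3 of 7 (median -0.95). Initiation factor genes lay on both sides of 0, from RRN11 at 0.04 and -1.85 to TFC7 at -0.20 and 0.32. The nuclear exosome, which trims rRNA precursors, had 2 of 13 genes at least 2-fold lower, beside 8.55% of named genes. Its median was -0.58, with its helicase MTR4 lowest at -0.61 and -3.20. Of 9 tRNA methyltransferase genes, 6 were at least 2-fold lower, among them TRM2 at -0.30 and -3.11.

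Cytosolic ribosomal protein genes lay less far below 0 than the genes that assemble them, but nearly all on the same side. Of 135 on the array 121 had a gain. Of these, 118 were below 0, 40 lay past 2-fold on the low side and 0 on the high side, and the median was -0.86. The 47 small subunit proteins had a median of -0.90, from 0.00 without stress to -0.92 in KCl. The 74 large subunit proteins had a median of -0.84, from -0.01 to -0.82. Wild type ACY044 in KCl lay at list medians of -0.41 and -0.27 for these, against -2.56 and -2.62 for the assembly lists. The lowest gain was that of RPS9A, at 0.67 and -1.71, and the highest that of RPL41A, at 0.08 and 0.88. Under spread scaling 18 of the 121 lay at -1 or below on the rescaled values, and under quantile normalisation 15.

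Most ribosomal proteins of yeast are encoded by 2 near-identical paralogues, and their gains differed within pairs. In 47 pairs with a value for each, the median difference within a pair was 0.47, and 22 pairs differed by at least 0.5. Over all 121 ribosomal protein genes the quartiles of the gain were -1.07 and -0.60. Differences between genes that are not paralogues were not measured, so 0.47 cannot be called particular to pairs. Both members were below 0 in 45 pairs and both at least 2-fold lower in 5. The widest pair was RPS26A, at -0.04 and -0.43, and RPS26B, at -0.20 and -2.16. In wild type ACY044 in KCl that pair lay at 0.33 and -1.74. The other 3 pairs that differed by at least 1 were RPL31A and RPL31B, with gains of -0.70 and -2.04, RPL16A and RPL16B, with gains of -1.67 and -0.45, and RPL11A and RPL11B. In KCl RPL11A lay at -0.73 and RPL11B at -2.02, with both near 0 without stress. Probes may not tell near-identical copies apart, so a difference within a pair may be smaller on the array than between the transcripts. Error of single arrays may in turn enlarge a difference, and its size is not known.

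**Figure D2:**
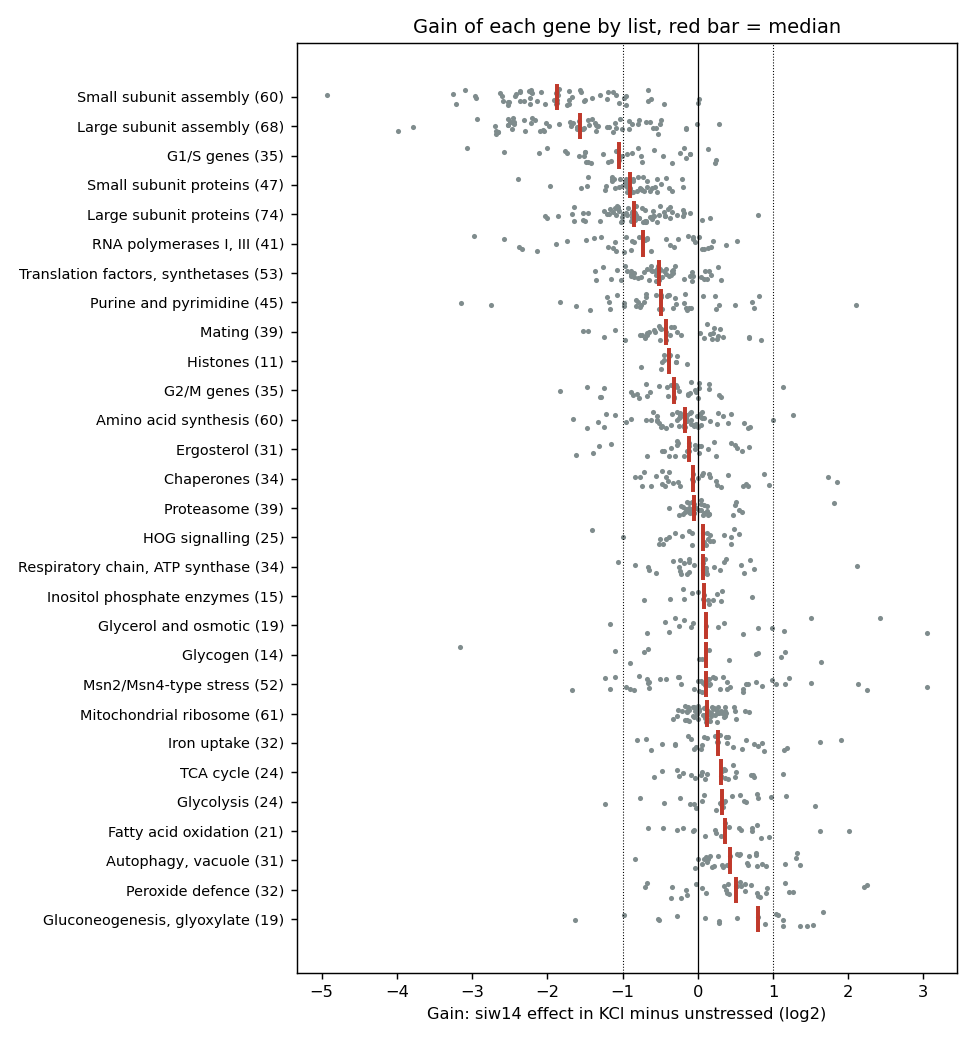
Gain of each gene (grey points, log2, horizontal axis) in 29 gene lists, ordered by their medians (red bars), with the number of genes with a gain in brackets. Assembly, G1/S and ribosomal protein genes lie to the left of 0, from a median of -1.88 for small subunit assembly, and gluconeogenesis and glyoxylate genes farthest right at 0.79.

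Genes outside ribosome assembly in translation and nucleotide supply lay lower by less. Translation factor and aminoacyl-tRNA synthetase genes lay past 2-fold on the low side for 6 of 53 and on the high side for 0. Among named genes 8.55% and 2.81% did so, and the median of this list was -0.52. NIP1, a subunit of initiation factor eIF3, lay at -0.13 and -1.50 and the elongation factor gene YEF3 at 0.05 and -1.30. Purine and pyrimidine genes had 9 of 45 lower, 1 higher and a median of -0.48. URA7, a CTP synthase gene, lay at -0.78 and -3.92, and AAH1, the adenine deaminase gene that is turned down in growth arrest, at 0.06 and -2.69. The other CTP synthase gene, URA8, lay at 0.61 and 1.33. The orotate phosphoribosyltransferase gene URA10 was the 1 higher member, at 0.60 and 2.70. Mitochondrial ribosomal proteins, by contrast with cytosolic ones, had 0 of 61 at 2-fold and a median of 0.12, which becomes -0.08 under spread scaling and -0.04 under quantile normalisation.

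Genes of the G1/S transition were also lower. Of 36 on the array 35 had a gain, 19 of them at least 2-fold lower and 0 higher. The median gain was -1.05, from 0.06 without stress to -1.15 in KCl. RNR1, the large subunit of ribonucleotide reductase, lay at 0.25 and -2.82, a gain of -3.07 or 8.41-fold lower. Its partners lay nearer to 0 in the gain, with RNR2 at 0.53 and 0.79, RNR3, which DNA damage induces, at 0.04 and 0.91, and RNR4 at 0.31 and 0.09. Cyclin genes of this phase were low, with CLN2 at -0.26 and -2.01, CLN1 at 0.16 and -1.34 and CLB6 at 0.26 and -1.85. CLN3, the cyclin that starts the transition, lay at -0.06 and 0.17, and the cyclin kinase inhibitor gene SIC1 at 0.09 and -0.01. POL30, the sliding clamp of replication, lay at 0.27 and -1.73, and GIC2, a Cdc42 effector of bud emergence, at 0.29 and -2.29. In wild type ACY044 in KCl the list lay at a median of -0.54, and GIC2 at -0.15.

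Replication and chromatid cohesion genes, grouped after their values were seen, lay on the same side. The replication group overlaps the genes just described, with POL30 and with RFA1, which had no gain, so it is not separate from the G1/S result. Of 41 replication genes, 37 were below 0 and 8 of them past 2-fold, at a median of -0.63. POL12 and POL1 of DNA polymerase alpha lay at 0.01 and -0.30 without stress and at -2.10 and -2.07 in KCl. Of 8 cohesin genes and cofactors, 4 were lower, with SMC3 at -0.21 and -2.30, MCD1 at 0.15 and -1.43 and PDS5 at -0.04 and -1.67, while SMC1 had a gain of -0.42. Later cell cycle genes lay nearer to 0. The G2/M list had 5 of 35 lower and 1 higher, beside 8.55% and 2.81% of named genes, and a median of -0.31. CLB1, a mitotic cyclin gene, lay at 1.43 and -0.04, and GIN4 and SWE1, kinase genes of bud morphogenesis, at -0.37 and -0.02 without stress and -2.20 and -1.31 in KCl. CDC15, a mitotic exit kinase gene, was the higher member, at -0.10 and 1.04. All 11 histone genes lay below 0 and 0 reached 2-fold, with a median of -0.39. The gain describes RNA of whole cultures, in which fewer cells in a cycle phase and less RNA in each cell cannot be told apart.

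Mating and cell surface genes passed 2-fold about as often as all named genes on the low side, of which 8.55% did so. The mating list had 4 of 39 past 2-fold there and a median of -0.42. FAR1, the cyclin kinase inhibitor of pheromone arrest, lay at 0.06 and -1.40 and the agglutinin gene AGA1 at 0.56 and -0.68. In the cell wall list 4 of 51 were lower and 4 higher, beside 2.81% higher among named genes. SCW10, a glucanase-like wall protein gene, lay at 0.06 and -2.52, whereas PIR3, a stress-induced wall protein gene, lay at 1.66 and 3.79 and FLO10, a flocculin gene, at 0.08 and 1.61. The gain of PIR3 is 0.44 under spread scaling. PRY2, which encodes a secreted sterol-binding protein, lay at 0.85 and -2.05. The osmosensor MSB2 was the 1 lower gene of 25 in the HOG pathway list, at -0.05 and -1.46. HOG1 and its activator PBS2 had gains of 0.10 and 0.08.

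Genes for glycerol and water balance had a median near 0 and a few members far above it. Of 23 on the array 19 had a gain. Past 2-fold were 4 of them on the high side and 1 on the low side, beside 2.81% and 8.55% of named genes. The higher ones were SIP18 and AQY1, with gains of 3.05 and 2.42, DAK1, which lay at 0.65 and 2.15, and GUT1, with a gain of 1.14. The list's median was 0.10, or -0.07 over the members that stand in no other list, a split added after the values were seen. GPP1, a glycerol phosphatase gene, lay at -0.50 and -0.75, against 2.22 in ACY044 in KCl, and FPS1, the glycerol channel gene, at -0.65 and -0.95. GUT1, the glycerol kinase gene, lay at -0.56 and 0.58, and GCY1, a glycerol dehydrogenase gene, at 1.53 and 2.33.

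**Figure D3:**
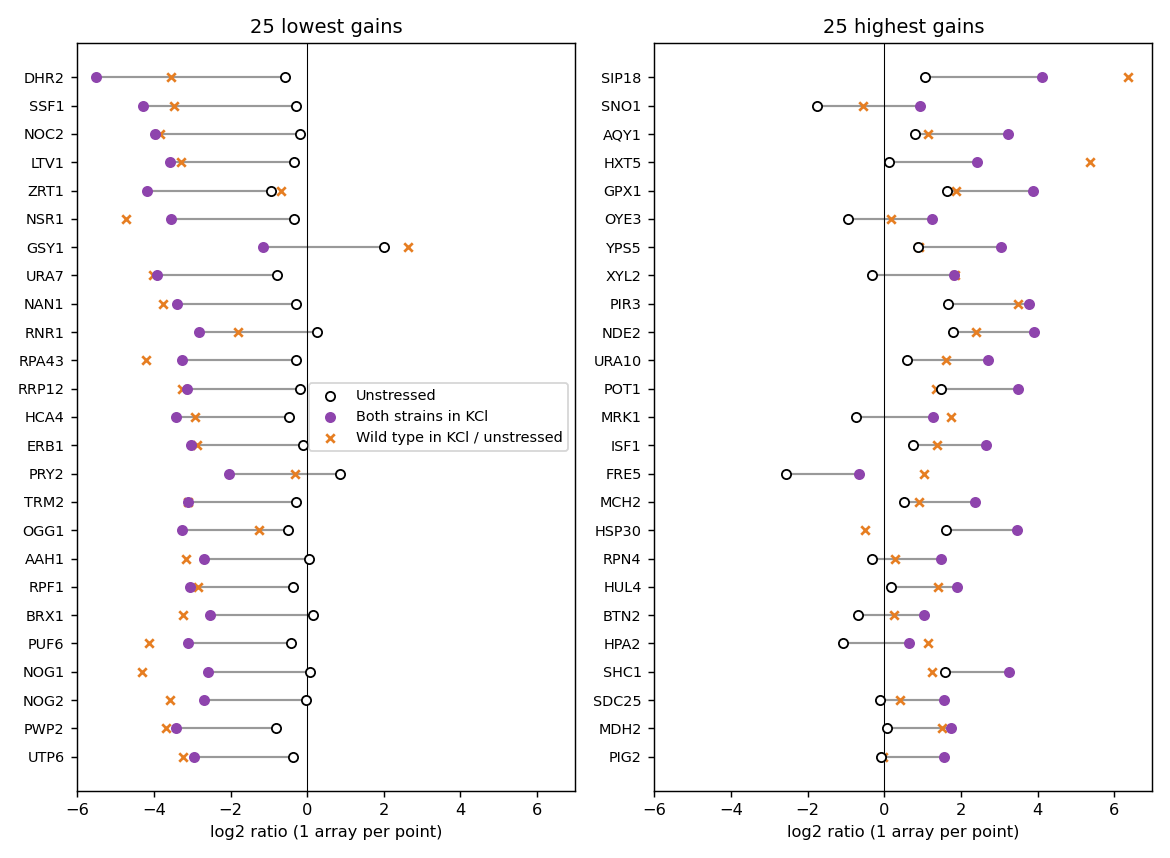
Log2 ratios of the 25 named genes with the lowest (left) and the 25 with the highest (right) gain: siw14 against wild type without stress (open circles), the same with both in KCl (filled circles) and wild type ACY044 in KCl against unstressed (crosses), 1 array for each kind of point. Most low genes start near 0 and end between -2 and -4, with GSY1 passing from 2.01 to -1.15.

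Stress genes of the Msn2/Msn4 type differed from this: they were high in the mutant without stress and about as high in KCl. Of 60 on the array 52 had a gain, with a list median of 1.84 without stress, 1.94 in KCl and 0.12 for the gain. Past 2-fold in the gain were 7 on the high side and 4 on the low side, beside 2.81% and 8.55% of named genes. DDR2, a multi-stress gene, lay at 4.79 and 4.84. HSP26, which encodes a small heat shock protein, lay at 3.44 and 3.60 and MSC1 at 3.20 and 3.30. MSN2 lay at 0.09 and 0.01 and MSN4 at 1.48 and 0.80.

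This near equality depends on how the spread of the arrays is treated. Scaling each array to its own spread gave the stress list a median gain of -1.31, with 33 of 52 at -1 or below and 1 at 1 or above. Quantile normalisation gave -0.28, with 12 lower and 4 higher. Rescaled values are no longer measured log2 ratios, so a difference of 1 on them is not 2-fold. Spread scaling widens the unstressed ratios relative to those in KCl, so a list about equally high on both arrays turns low by construction. Some stress genes differed between both arrays on the deposited scale too. SOL4, a 6-phosphogluconolactonase gene, lay at 4.19 and 2.52, the hexokinase gene HXK1 at 3.52 and 2.28, and HOR7, a membrane protein gene induced by osmotic stress, at 3.86 and 2.69. On the other side SIP18, a desiccation protein gene, lay at 1.07 and 4.12, a gain of 3.05 and the highest of all named genes. GPX1, a glutathione peroxidase gene, lay at 1.64 and 3.89, and DAK1, a dihydroxyacetone kinase gene, at 0.65 and 2.15. Under spread scaling the gain of GPX1 is 0.55 and that of DAK1 0.68.

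Reserve carbohydrate genes lay on both sides. Of 14 glycogen genes, 3 lay past 2-fold on the high side and 2 on the low side. Their median was 0.11, which turns to -0.68 under spread scaling and -0.24 under quantile normalisation. GSY1, a glycogen synthase gene, lay at 2.01 and -1.15, a gain of -3.16 or 8.95-fold lower. It was the only gene at least 2-fold higher on the unstressed array and at least 2-fold lower in KCl. The other glycogen synthase gene, GSY2, lay at 1.87 and 0.96, and the branching enzyme gene GLC3 at 2.03 and 0.93. The phosphatase targeting subunits GAC1 and PIG2, which direct dephosphorylation of the synthase, lay at 2.89 and -0.09 without stress and at 4.04 and 1.55 in KCl. Of 6 trehalose genes 0 passed 2-fold, with the synthase complex genes TPS2 at 1.74 and 1.89 and TSL1 at 1.81 and 1.93.

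Glucose uptake genes showed the same spread. HXT7 and HXT6, high-affinity transporter genes of near-identical sequence that probes may not tell apart, lay at 3.82 and 3.41 without stress and at 2.02 and 1.63 in KCl. HXT4 lay at 2.87 and 1.81. HXT5, a transporter gene expressed in slow growth, lay at 0.13 and 2.43, a gain of 2.30, and MTH1, a regulator of transporter genes, at 1.01 and 2.10. Of 17 genes of the list, 2 were thus higher and 3 lower, beside 2.81% and 8.55% of named genes.

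Genes for growth on non-fermentable carbon held the largest share of higher members of the 44 lists. Of 19 gluconeogenesis and glyoxylate genes, 8 lay past 2-fold on the high side and 1 on the low side. The median gain was 0.79, from 0.17 without stress to 0.94 in KCl. MDH2, the cytosolic malate dehydrogenase of gluconeogenesis, lay at 0.08 and 1.74, a gain of 1.66. The carnitine acetyltransferase gene CAT2 lay at 0.10 and 1.64, the carnitine carrier gene CRC1 at 0.26 and 1.62 and the acetate transporter gene ADY2 at -0.79 and 0.67. ICL1, isocitrate lyase, was already at 1.76 without stress and lay at 1.23 in KCl, and the acetaldehyde dehydrogenase gene ALD6 lay at 0.68 and -0.96. CAT8 and HAP4, which encode activators of gluconeogenic and respiratory genes, lay at 1.24 and 1.52 without stress and at 2.30 and 2.55 in KCl. The list median was 0.23 under spread scaling and 0.60 under quantile normalisation.

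Other energy genes lay near 0 or slightly above. Fatty acid oxidation genes had 2 of 21 higher, beside 2.81% of named genes. Their median of 0.37 becomes 0.014 under spread scaling and 0.15 under quantile normalisation. The higher ones were POT1, the peroxisomal thiolase gene, at 1.48 and 3.49, and PXA2, a fatty acid importer of the peroxisome, at 0.19 and 1.81. The gain of POT1 is 0.48 under spread scaling. The median of TCA cycle genes was 0.31, which becomes -0.29 under spread scaling and -0.06 under quantile normalisation. Nuclear genes of the respiratory chain and ATP synthase lay at 1.16 without stress and 1.18 in KCl, with a median gain of 0.07 that becomes -0.79 and -0.34 under these scalings. NDE2, an external NADH dehydrogenase gene, was the 1 higher member at 1.80 and 3.91, with a gain of 0.33 under spread scaling, and COX5B, a cytochrome oxidase subunit gene, the 1 lower member at 2.29 and 1.23. Of 16 genes and intron reading frames of the mitochondrial genome, grouped after their values were seen, 15 lay above 0 and 2 were at least 2-fold higher, COB at -0.02 and 1.55 and BI2 at -1.14 and 0.07. These transcripts are largely not polyadenylated in yeast, and the RNA was selected by oligo-dT, whose part in these values was not tested. Glycolysis genes had a median of 0.33, which is 0.08 under spread scaling and 0.22 under quantile normalisation, with TDH3 at 0.86 and 2.41 (a gain of 0.57 under spread scaling) and PGK1 at 0.50 and 1.68.

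Autophagy and vacuolar protease genes lay above 0 for 29 of 31. At least 2-fold higher were 4 and lower 0, beside 2.81% and 8.55% of named genes. Their median was 0.43, which is 0.15 under spread scaling. ATG14, a subunit of the autophagy lipid kinase complex, lay at -0.03 and 1.32, the protease gene ATG4 at -0.31 and 1.01 and the vacuolar aminopeptidase gene APE3 at 0.18 and 1.34. Genes of peroxide defence had 5 of 32 higher and 0 lower, beside 2.81% higher among named genes. Their median of 0.51 becomes 0.14 under spread scaling and 0.31 under quantile normalisation. OYE3, an NADPH oxidoreductase gene, lay at -0.96 and 1.26 and TSA2, a peroxiredoxin gene, at 1.18 and 2.44. RPN4, the activator of proteasome genes, lay at -0.33 and 1.49, while the 39 proteasome genes including it had a median of -0.05 and 1 past 2-fold. Among regulators of protein kinase A and Msn2/Msn4, 4 of 25 were higher and 0 lower, beside 2.81% and 8.55% of named genes. The exchange factor gene SDC25 lay at -0.12 and 1.56 and the kinase gene YAK1, which acts against protein kinase A signalling, at 0.55 and 2.04, a gain of 0.74 under spread scaling. The list's median of 0.10 turns to -0.20 under spread scaling and -0.12 under quantile normalisation.

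Enzymes of inositol phosphate metabolism had 0 of 15 past 2-fold in either direction. DDP1, which encodes another inositol pyrophosphate phosphatase, lay at -0.13 and 0.59. The kinase genes KCS1 and VIP1, which make inositol pyrophosphates, had gains of 0.15 and 0.08, and OCA1, a relative of SIW14, of 0.20.

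Metal and phosphate genes differed by gene. Iron uptake genes were low without stress, at a list median of -0.56, and at -0.43 in KCl. In the gain 4 of 32 were at least 2-fold higher and 0 lower, beside 2.81% and 8.55% of named genes. FRE5, a reductase family gene, lay at -2.55 and -0.65 and FIT2, a siderophore-retaining wall protein gene, at -2.24 and -0.62, so that their ratios were nearer the wild type in KCl. The ferroxidase partner gene FTR1 lay at -1.13 and -1.94. ZRT1, the high-affinity zinc transporter gene, lay at -0.93 and -4.17, a gain of -3.24, while its activator gene ZAP1 lay at -1.16 and -1.50. Wild type ACY044 in KCl had ZRT1 at -0.69, so that this gene was among the 40 lowest gains without being 2-fold lower in that strain. The sodium pump genes ENA1 and ENA2, which salt induces, lay at -0.31 and -0.53 without stress and -0.99 and -1.08 in KCl. They are near-identical in sequence. PHO3, an acid phosphatase gene, lay at 0.25 and -1.64.

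The 14 lists not yet described had medians between -0.19, for phosphate genes, and 0.26, for meiosis genes. Their counts stand beside 2.81% of named genes on the high side and 8.55% on the low side, and several lie near these shares. On the high and the low side past 2-fold were 2 and 6 of 60 amino acid synthesis genes, 0 and 4 of 31 ergosterol genes, 3 and 2 of 33 amino acid permeases, 1 and 2 of 33 nitrogen genes and 2 and 0 of 34 chaperone genes. Zinc genes had 1 and 3 of 17, phosphate genes 1 and 3 of 23 and pentose phosphate genes 1 and 2 of 10. Meiosis genes had 2 and 1 of 28, phospholipid genes 1 and 1 of 28 and sulphur and methionine genes 1 and 1 of 31. Of the 54 meiosis genes on the array, 26 had no gain. Sphingolipid genes had 0 and 1 of 24, ion transport genes 1 and 0 of 24, and strain marker genes 0 and 0 of 6. GAP1, the general amino acid permease gene, lay at 1.31 and -0.81, RKI1, the ribose phosphate isomerase gene, at 0.01 and -2.31 and the sterol desaturase gene ERG3 at -0.35 and -1.96. Among the 1667 unnamed probes, 116 lay past 2-fold on the high side and 102 on the low side.

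Genes were then grouped by where their ratios lay on each array. Of genes and probes within 0.5 of 0 without stress, 418 were at least 2-fold lower in KCl and 149 at least 2-fold higher. Of the 418, 332 were named genes and 135 assembly factors or ribosomal proteins. Whatever their unstressed ratio, 588 (10.6%) were lower in KCl, 159 of them assembly factors or ribosomal proteins, and 606 (10.9%) higher. The number within 0.5 of 0 without stress is not given here, so 418 and 149 cannot be read as shares. Of the 325 at least 2-fold higher without stress, 282 were so in KCl as well, at a median gain of 0.15, and 9 lay within 0.5 of 0 there. Of these 9, NCA3, a mitochondrial gene regulator, went from 2.12 to 0.17 and GCV2, a glycine cleavage gene, from 1.64 to 0.18. Of the 88 at least 2-fold lower without stress, 40 were so in KCl, among them ZPS1, a zinc-regulated surface gene at -3.69 and -3.45, and 19 lay within 0.5 of 0. The median gain of those 88 was 0.60. Since the unstressed ratio is subtracted, an error in it enters the gain with the opposite sign, and how much of the gain of genes far from 0 without stress comes from that was not tested.

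The gain was next set beside the KCl response of wild type ACY044, an array that shares no sample with it. In ACY044 in KCl 708 of 6151 (11.5%) lay past 2-fold on the high side and 717 (11.7%) on the low side. Genes low in this strain in KCl tended to have low gains. Of 644 genes at least 2-fold lower in ACY044, 313 (48.6%) were at least 2-fold lower in the gain and 6 higher, at a median of -0.96, beside 7.82% lower among all genes. Of 622 at least 2-fold higher in ACY044, 105 (16.9%) were higher in the gain and 16 lower, at a median of 0.43, beside 4.06% higher among all. Of 4204 that were neither, 111 were higher and 101 lower, at a median of 0.00. The medians of the first 2 classes were -0.63 and 0.01 under spread scaling and -0.56 and 0.18 under quantile normalisation. The low class thus lay below 0 on each of these scales, while the high class came close to 0 under spread scaling.

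**Figure D4:**
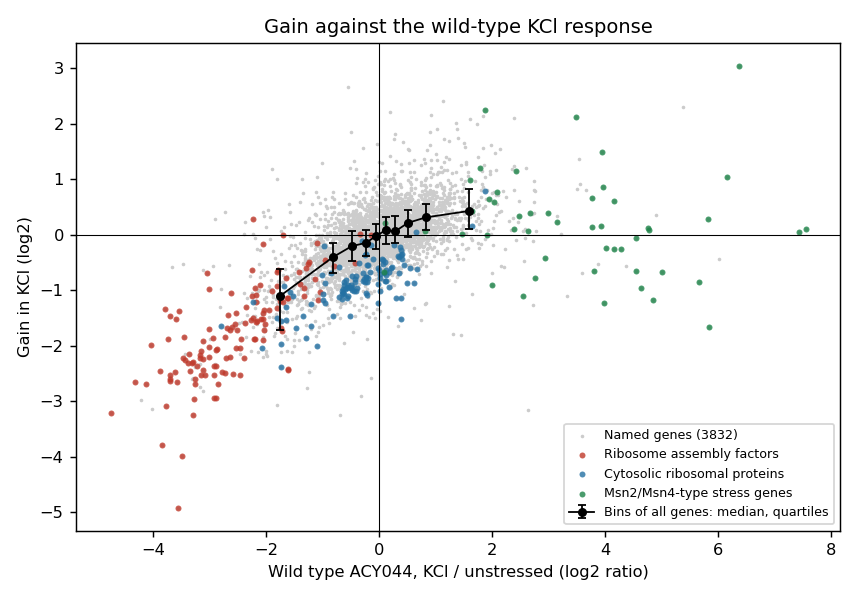
Gain (log2, vertical axis) against the log2 ratio of wild type ACY044 in KCl over unstressed (horizontal axis) for named genes, with medians and quartiles of 10 equal bins of all genes in black. The lowest bin had a median gain of -1.10 and the highest 0.43, and stress genes (green) with the largest wild-type ratios scatter around 0.

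The relation was weaker on the high side. Across 5470 genes Pearson's r was 0.58 and Spearman's rho 0.59, as a description of genes on the same probes, platform and dye order, which are not independent replicates. Among the 2630 genes below 0 in ACY044 r was 0.67 and rho 0.53, and among the 2840 above 0 they were 0.16 and 0.30. Outside the assembly and ribosomal protein lists r was 0.51 over 5228 genes. Genes at least 8-fold lower in ACY044 numbered 63, of which 58 were at least 2-fold lower in the gain, at a median of -2.36. Genes at least 8-fold higher numbered 71, with a median gain of 0.15, 12 higher and 5 lower. GPD1 at 6.02 in ACY044 had a gain of -0.43, DDR2 at 7.43 a gain of 0.05 and SIP18 at 6.37 a gain of 3.05. Low genes outside the assembly and ribosomal protein lists numbered 502, of which 193 were at least 2-fold lower in the gain, so the pattern was not limited to those lists.

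Some genes with a large gain had a modest ratio in ACY044 in KCl, or one of the other sign. The gain compares mutant with wild type, whereas the ACY044 ratio is the response of 1 wild type, so their sizes are unlike measures. Of the 40 highest gains of named genes, 25 were at least 2-fold higher in ACY044 and 0 lower. Over all genes and unnamed probes 11.5% and 11.7% were, and the shares among named genes alone were not computed. HSP30, a plasma membrane heat shock protein gene, lay at 1.60 and 3.45 but at -0.51 in ACY044, and its gain of 1.85 is 0.27 under spread scaling. SNO1, a vitamin B6 gene, lay at -1.74 and 0.92 but at -0.55 in ACY044, and BTN2, a protein sorting gene of the heat shock response, at -0.69 and 1.05 but at 0.26. AQY1, an aquaporin gene of spores, lay at 0.80 and 3.22, against 1.14 in ACY044. On the low side GIC2, PRY2 and ZRT1 lay at -0.15, -0.32 and -0.69 in ACY044 with gains of -2.58, -2.90 and -3.24. The strains behind both comparisons differ, so that strain and SIW14 cannot be told apart in these differences.

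The gain in peroxide, formed the same way from the array with both strains in 0.4 mM hydrogen peroxide, subtracts the same unstressed array, so values are set side by side without a measure of likeness. In peroxide 284 of 5584 (5.09%) lay past 2-fold on the high side and 220 (3.94%) on the low side. Small subunit assembly genes had a median gain of -1.88 in KCl and -0.61 in peroxide, large subunit ones -1.56 and -0.51, and small and large subunit ribosomal proteins -0.90 and -0.84 in KCl and -0.32 and -0.30 in peroxide. G2/M genes had the lower median in peroxide, at -0.98 against -0.31 in KCl, and so had histone genes, at -0.82 against -0.39. Peroxide defence genes lay at 0.51 in KCl and 1.64 in peroxide, with OYE3 at 2.21 and 6.85. Iron uptake genes lay at 0.27 and 0.90, and gluconeogenesis and glyoxylate genes at 0.79 and 0.37. DHR2, lowest in KCl at -4.93, had a gain of -0.78 in peroxide, and SIP18, highest at 3.05, one of 0.33. Of the 40 lowest gains in KCl, 9 were at least 2-fold lower in peroxide, and of the 40 highest, 13 of the 39 with a value were higher. Since both gains subtract the same unstressed ratio, such overlap is partly built in, and these counts are no measure of likeness.

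**Figure D5:**
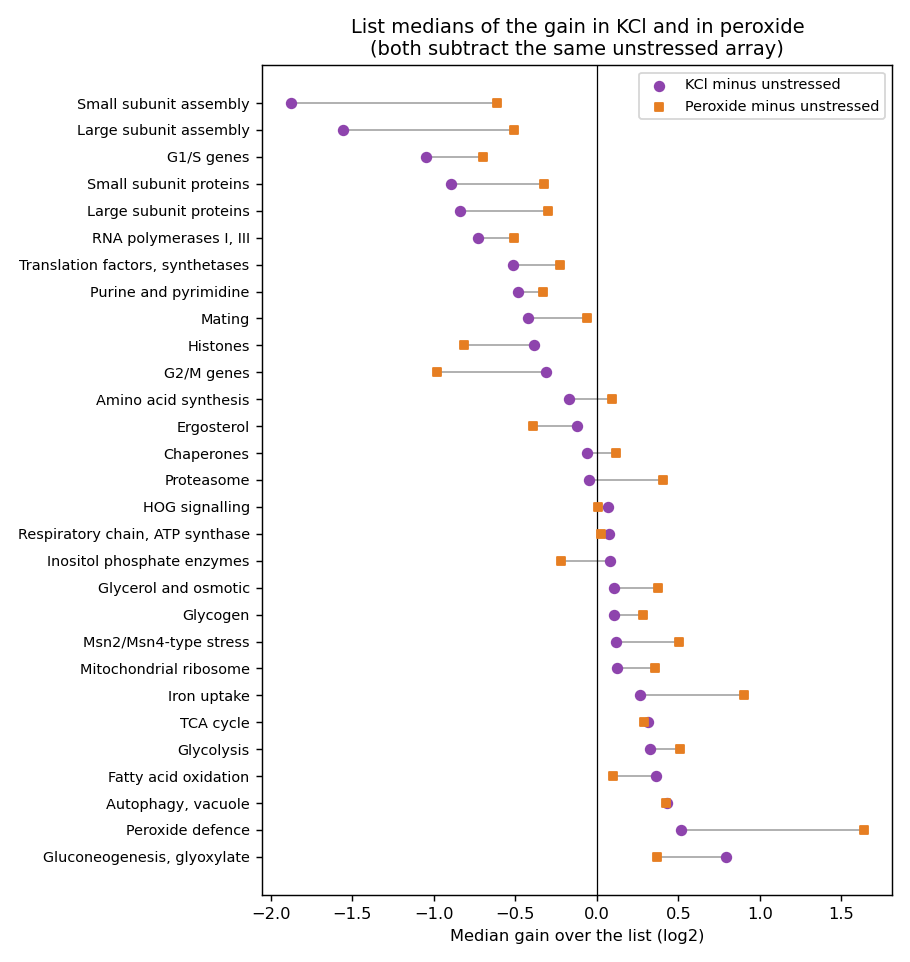
Median gain (log2, horizontal axis) of each gene list in KCl (circles) and in peroxide (squares), both against the same unstressed array. Ribosome lists lie lower in KCl, at -1.88 and -0.61 for small subunit assembly, while G2/M genes lie lower and peroxide defence genes higher in peroxide, at -0.98 and 1.64.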

How the data were processed

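The authors deposited a log ratio for every probe of an array, and these were taken as log2 values of the Cy5 over the Cy3 channel, with dyes per the labels. The base, the background correction and the normalisation are not given in the sources used here, and a natural logarithm would multiply each value by 1.44. Without intensities, precision is limited by the number of arrays. Missing values made up 10.4% of probes on the unstressed array and 6.94% on the KCl array. The 53 control features were left out. Of 4072 platform symbols, 3 had several probes, which were averaged. In the RefSeq gene table of assembly R64, 125 symbols were updated and 8 were kept as given. The gain was computed with Python 3.11.15 and pandas 2.3.3, and the scripts were tested on simulated data. The members, the 44 gene lists and the comparisons were chosen with earlier results of these data known, and 15 sub-groups (single complexes, polymerase subunits, exosome, tRNA methyltransferases, ribonucleotide reductase, replication, cohesin, the mitochondrial genome) after values were seen. Genes named were the 40 highest and 40 lowest gains, SIW14, MSN2, MSN4, list members, the leading genes of each pattern, and single genes outside this rule, chosen after their values were seen. Alternatives were centring, spread scaling, quantile normalisation, the log base, the genes compared, the probe of a gene and the threshold.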

Additional observations from a re-analysis of the deposited data

Results flagged for a closer look

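GSY1, a glycogen synthase gene, had a gain of -3.16, with its ratio on opposite sides of 0 on both arrays, at 2.01 without stress and -1.15 in KCl. This difference was not tested, since each value comes from 1 array. In peroxide the ratio lay at 0.27.

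Control features named E1A, which are not yeast genes and enter no comparison, gave values on the arrays. With a value on both arrays were 3, at 1.68 to 2.35 without stress and 1.94 to 2.54 in KCl, with a median gain of 0.239. Over the 9 with a value in KCl the median was 0.979, and the lowest was -0.864. On the array of wild type ACY044 in KCl the median over 6 was 0.145.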

How the results depend on the processing

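Each comparison rests on 1 array, so no value has an error. No paired analysis was possible because each comparison has 1 array and no replicate. A list median was counted as moved when it left the 95% order-statistic interval of the list's main median. That interval is taken over genes of a list on the same arrays, so it is no replicate error. Centring, genes measured on all 5 arrays, named genes only and 1 probe for each gene left all 44 list medians within it. Spread scaling moved 12, quantile normalisation 11 and natural logarithms 10. The counts of 225 higher and 434 lower became 481 and 731 with values read as natural logarithms and 71 and 220 at a threshold of 1.5. Named genes alone gave 109 higher. Quantile normalisation gave 250 lower. The share of higher calls was 34.1% on the deposited scale, 52.8% under quantile normalisation and 24.7% among named genes. Of the 332 lower named genes 193 were shared with spread scaling and 170 with quantile normalisation, and of the 109 higher ones 59 and 75.

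Under spread scaling and quantile normalisation, in that order, list medians were -1.31 and -0.28 for general stress, -0.20 and -0.12 for regulators of protein kinase A, -1.18 and -1.08 for small subunit assembly, -0.99 and -0.87 for large subunit assembly, -0.61 and -0.59 for proteins of each ribosomal subunit, -0.076 and -0.044 for mitochondrial ribosomal proteins, -0.29 and -0.25 for translation, -0.29 and -0.057 for the TCA cycle and -0.79 and -0.34 for the respiratory chain. Genes lower in ACY044 lay at -0.63 and -0.56 and higher ones at 0.012 and 0.18. Spread scaling moved trehalose to -0.90 and autophagy to 0.15, and quantile normalisation moved iron uptake to 0.66. Natural logarithms gave -2.71 and -2.25 for the assembly lists, -1.29 and -1.21 for small and large subunit proteins, -0.75 for translation, 1.15 for gluconeogenesis, 0.49 for hexose transport, -1.51 for G1/S, -0.56 for histones and -0.61 for mating. For single genes, moved means that the gain crossed 1 in size. Of 83 named genes, spread scaling moved 15 and quantile normalisation 3, among them SIW14 to 1.47 and 1.29 and MSN4 to -1.56 and -1.06. The cause was not tested. Shares of promoter motifs were not run.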
